A study of Mus musculus with 4 samples.

Results

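The Nfi and Ebf transcription factor genes were followed at every annotated transcription start site (TSS) in mouse embryonic stem cells. The set held the 8 genes Nfia, Nfib, Nfic, Nfix, Ebf1, Ebf2, Ebf3 and Ebf4, out of 22367 protein-coding genes of the GENCODE vM1 annotation on chromosomes 1 to 19, X and Y (mm9). The genes were chosen by name, with the reads of these same libraries at their start sites already known. Their counts and ratios are therefore descriptions and not tests. The 8 genes have 64 annotated transcripts and 43 distinct TSSs. TSSs of a gene lying at most 1 kb apart were joined, which gave 22 TSS groups, numbered from the most upstream, each measured from 1 kb before its first to 1 kb after its last TSS. Nfia, Nfic and Nfix have 4 groups each, Nfib and Ebf1 have 3, Ebf3 has 2, and Ebf2 and Ebf4 have 1.

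The measurements were chromatin immunoprecipitation followed by sequencing (ChIP-seq) in E14TG2a.4 cells. These are mouse embryonic stem cells that need no feeder layer and were grown on gelatin with serum and leukaemia inhibitory factor (LIF). For trimethylation of lysine 4 of histone H3 (H3K4me3, rabbit monoclonal antibody C42D8) there was 1 library from cells carrying a Jarid1b short hairpin RNA (shRNA) and 1 from cells carrying a scramble hairpin. Both hairpins were delivered by lentivirus in an LKO vector, and the growth protocol describes selection with puromycin. A further 2 libraries were made with an antibody labelled Jarid1b-DAIN from cells labelled E14 ESCs, for which no hairpin is named in the label. Nothing in the labels says whether the transduced cells were a pool or a clone, and no measure of Jarid1b RNA or protein was analysed here, so the knockdown itself was not checked.

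The NFI proteins bind DNA as dimers at palindromic TTGGC sites and act in the formation of glia and of the cortex. The EBF proteins are helix-loop-helix factors of the COE family, known for specifying B cells and for roles in fat cells and in olfactory and other neurons. H3K4me3 marks the start sites of active genes and, in embryonic stem cells, also the CpG-rich start sites of many developmental regulators that are little transcribed. Jarid1b, the product of Kdm5b, removes methyl groups from this lysine.

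With repeats of a 5′ position on a strand removed, the Jarid1b shRNA H3K4me3 library held 2635705 reads and the scramble H3K4me3 library 5158330. The Jarid1b replicates held 4336767 and 1602370. The H3K4me3 libraries differed in background: windows at the gene-level (most upstream) TSSs of all genes took 35.7% of the Jarid1b shRNA reads and 27.9% of the scramble reads. Before scaling to library size, a 1 kb background bin held 0.485 reads on average in the Jarid1b shRNA library and 1.14 in the scramble library. Scaled to reads kept, the log2 ratio of Jarid1b shRNA over scramble in these bins was -0.26. The files of the Jarid1b replicates shared fragments. Of the positions in replicate 2, 18.2% also occurred in replicate 1 once the offset between the files was allowed for, among them 25 of the 142 in the windows of the Nfi and Ebf genes. The replicates were therefore counted as 1 sample. Each condition thus had 1 sample and no replicate check. All intervals given are 95% intervals and cover only the error of counting, because each condition had 1 sample. Spread between samples was not measured. PCR copies carried no molecular identifier, so reads need not be separate molecules and even the error of counting may not be fully covered. In a population of cells, a mark on fewer cells and a lower level per cell cannot be told apart.

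The label of embryonic stem cells was set against marker genes. Of 10 stem cell markers, 7 were enriched for H3K4me3 at the gene-level TSS in the Jarid1b shRNA library and 9 in the scramble library. Over all genes, 59.9% and 60.1% were enriched, in the same order. Levels are in RPM per kb (reads scaled to library size, per kb of window). The stem cell markers summed to 131 in the Jarid1b shRNA library and 170 in the scramble library. Levels of single markers ranged from 0 to 28.3 in the Jarid1b shRNA library and from 0.291 to 38.4 in the scramble library. Of the 9 stem cell markers compared, Nanog, Zfp42, Dppa5a and Tdgf1 were called lower in Jarid1b shRNA cells by the rule given below. Of all genes compared, 2.4% were called lower and 24.0% higher. Of 5 neural progenitor markers found, 4 were compared and all 4 were called higher, Nes and Olig2 among them. The 5 summed to 27.1 in Jarid1b shRNA cells and 8.92 in scramble cells. Of 8 fibroblast markers, 4 were compared and 3 were called higher. The 8 summed to 37.4 and 13.8 in the same order of cells, and Col3a1 had 0 reads in Jarid1b shRNA cells and 2 in scramble cells. B lineage markers summed to 17.6 in Jarid1b shRNA cells and 17.3 in scramble cells, of which Vpreb1 alone held 13.3 and 14.5. The median B lineage marker was at 1.04 in Jarid1b shRNA cells and 0.679 in scramble cells. Liver markers summed to 1.33 in Jarid1b shRNA cells and 0.679 in scramble cells, with Alb at 0 in Jarid1b shRNA cells and Afp at 0 in both. With the median of the GC class subtracted, 2 stem cell markers were called lower, and 2 neural progenitor and 0 fibroblast markers higher. The part of these differences in the results below was not tested.

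The start sites of these genes differ sharply in base composition, which the following stretches show. Each is the 250 bases just upstream of the first TSS of a group on mm9, written 5′ to 3′ on the gene's strand, with every CpG pair in capitals. The first pair comes from main start sites with large H3K4me3 ratios, both in CpG-dense sequence.
Ebf3 group 1 (chr7:144506129-144506378, strand -): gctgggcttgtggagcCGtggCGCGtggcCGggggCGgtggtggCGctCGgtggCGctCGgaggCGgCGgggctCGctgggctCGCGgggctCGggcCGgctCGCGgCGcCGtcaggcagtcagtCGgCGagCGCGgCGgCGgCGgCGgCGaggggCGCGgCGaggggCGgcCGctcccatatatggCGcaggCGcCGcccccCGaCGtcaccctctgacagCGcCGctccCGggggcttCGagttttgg
Nfia group 2 (chr4:97444049-97444298, strand +): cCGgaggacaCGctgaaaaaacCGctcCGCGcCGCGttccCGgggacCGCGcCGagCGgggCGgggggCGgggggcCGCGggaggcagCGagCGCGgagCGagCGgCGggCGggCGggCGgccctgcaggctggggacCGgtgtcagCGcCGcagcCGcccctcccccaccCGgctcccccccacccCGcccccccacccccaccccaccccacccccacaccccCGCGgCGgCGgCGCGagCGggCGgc
These stretches hold 43 CpG pairs (Ebf3) and 39 (Nfia), whereas the median of the 39760 such stretches of all protein-coding genes is 4. The second pair comes from start sites of the same families with fewer CpG pairs, namely 4 at Nfia group 1 and 12 at Ebf1 group 1.
Nfia group 1 (chr4:97439175-97439424, strand +): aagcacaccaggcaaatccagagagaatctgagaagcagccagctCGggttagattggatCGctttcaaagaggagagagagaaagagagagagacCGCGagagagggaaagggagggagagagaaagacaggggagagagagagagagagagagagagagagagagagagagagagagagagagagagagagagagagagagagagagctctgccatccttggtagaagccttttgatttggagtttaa
Ebf1 group 1 (chr11:44430569-44430818, strand +): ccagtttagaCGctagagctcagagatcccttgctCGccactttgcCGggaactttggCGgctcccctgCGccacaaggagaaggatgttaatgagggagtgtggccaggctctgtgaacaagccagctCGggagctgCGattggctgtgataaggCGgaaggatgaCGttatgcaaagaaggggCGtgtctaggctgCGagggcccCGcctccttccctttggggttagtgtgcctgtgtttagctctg
No exon is annotated in any of these 4 stretches. NFI and EBF motifs were searched on both strands of the 250 bases of all groups. The full NFI palindrome, TTGGC and GCCAA with 5 bases of any kind between, was in 0 of the 22 stretches of the Nfi and Ebf genes and in 0.0201% of all 39760. Its single arm TTGGC, which every full palindrome also contains, was in 10 of 22 and in 39.96% of all. The EBF palindrome, TCCC and GGGA with 2 bases of any kind between, was in 0 of 22 and in 0.802% of all.

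H3K4me3 at the Nfi and Ebf genes was higher in Jarid1b shRNA cells at 8 of the 12 TSS groups that could be compared, and lower at 0. A group was compared with at least 20 reads over both libraries, and called when RPM differed at least 2-fold and the interval of the log2 ratio excluded 0. The 8 were Nfia group 2, Nfib group 2, Nfic groups 1 and 2, Nfix groups 1 and 4, Ebf3 group 1 and Ebf4. With enrichment in either H3K4me3 library also required, 7 remained, and Nfic group 2 was lost. Of all 16530 groups compared, 23.1% were called higher and 2.81% lower. The median log2 ratio was 2.04 over the 12 groups and 0.40 over all groups compared. The genes were chosen with these ratios known, so nothing is read from that difference. At the gene-level TSS alone, 6 of the 8 genes had enough reads to compare, and of these 4 were called higher (Nfic, Nfix, Ebf3 and Ebf4) and 0 lower, beside 24.0% and 2.4% of 13536 genes compared. Of all genes called, 90.9% were higher, a share that was 57.5% with the median log2 ratio of all genes (0.40) set to 0, 69.6% with the median of each GC class subtracted, and 97.6% with scaling to background bins. With the median set to 0, Nfic, Nfix, Ebf3 and Ebf4 were again the genes called higher. With GC classes 3 genes were called higher: Nfix and Ebf3 kept the call, Nfic (log2 ratio 0.65 above its class) and Ebf4 (0.78) lost it, and Ebf1 (1.06) gained it.

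The level of the mark differed widely among the genes and was uneven along each gene. The following levels are in RPM per kb, at the group of each gene with the most reads, called its leading group.

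**Figure D1:**
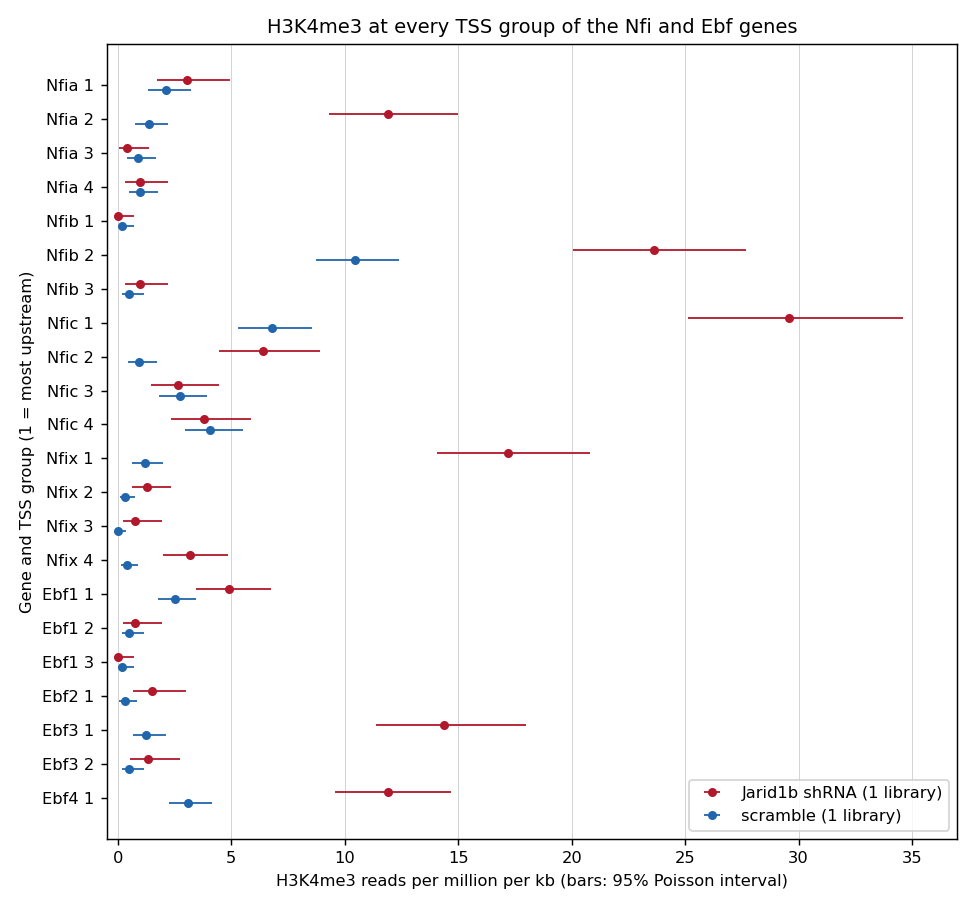
H3K4me3 at all 22 TSS groups, in RPM per kb on the horizontal axis, with Jarid1b shRNA (1 library) in red above scramble (1 library) in blue and bars for the 95% Poisson interval. The highest level is that of Nfic group 1 in Jarid1b shRNA cells (29.6) and, in scramble cells, that of Nfib group 2 (10.4), and the groups that do not lead their gene, apart from Nfic group 2, lie below 5 in both.

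In Jarid1b shRNA cells the order was Nfic (29.6, interval 25.1 to 34.6), Nfib (23.6, 20.1 to 27.7), Nfix (17.2, 14.0 to 20.8), Ebf3 (14.4, 11.4 to 17.98), Ebf4 (11.9, 9.54 to 14.7), Nfia (11.9, 9.31 to 15.0), Ebf1 (4.90, 3.45 to 6.76) and Ebf2 (1.52, 0.655 to 2.99). Neighbours in that order overlapped in their intervals, except that Nfia and Ebf1 did not, nor did Ebf1 and Ebf2. In scramble cells the order was Nfib (10.4, 8.74 to 12.4), Nfic (6.79, 5.29 to 8.57), Ebf4 (3.08, 2.24 to 4.13), Ebf1 (2.51, 1.76 to 3.45), Nfia (1.35, 0.772 to 2.19), Ebf3 (1.24, 0.661 to 2.12), Nfix (1.17, 0.640 to 1.96) and Ebf2 (0.291, 0.0600 to 0.850). There, Nfib, Nfic and Ebf4 stood apart from each other. Nfix, the third gene in Jarid1b shRNA cells, was among the lowest in scramble cells. For scale, the median level over genes enriched in the same library was 11.95 in Jarid1b shRNA cells and 8.72 in scramble cells.

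Nfix, an NFI gene that acts in muscle and neural development, had the largest ratio of the leading groups. Its group 1 spans TSSs at 87323923 to 87324243 on the minus strand of chromosome 8 and starts 3 protein-coding transcripts. It held 105 reads in Jarid1b shRNA cells and 14 in scramble cells, a log2 ratio of 3.88 (3.07 to 4.80). The Jarid1b shRNA reads formed a peak just inside the gene, where the highest 500-base bin, centred 750 bases downstream of the first TSS, held 43 reads against 7 in scramble cells. The other Nfix groups were low. Group 4, at 87231615 to 87232117 near the 3′ end, held 21 reads in Jarid1b shRNA cells and 5 in scramble cells (log2 ratio 3.04, 1.59 to 4.80) and was also called higher. Group 2, at 87297295 to 87298268, held 10 reads in Jarid1b shRNA cells and 5 in scramble cells, and group 3, at 87237967, held 4 and 0 in the same order. Neither of these reached 20 reads.

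Nfia, an NFI gene needed for the onset of gliogenesis, carried the difference at its internal start and not at its most upstream one. Group 1, at 97439425 on the plus strand of chromosome 4, held 16 reads in Jarid1b shRNA cells and 22 in scramble cells, a log2 ratio of 0.51 whose interval included 0 (-0.52 to 1.504). Group 2, with 7 TSSs at 97444299 to 97444595 that start 9 protein-coding transcripts, held 72 reads in Jarid1b shRNA cells and 16 in scramble cells (log2 ratio 3.14, 2.34 to 4.02). The gene-level TSS is that of group 1, so a count made there alone misses the leading group. The window of group 2 also holds the divergent TSSs of E130114P18Rik at 97444739 and 97444769 on the minus strand, whose reads cannot be told apart from those of Nfia. Groups 3 and 4, at 97546810 and 97577724, held 2 and 5 reads in Jarid1b shRNA cells and 9 and 10 in scramble cells, too few to compare.

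Nfib, an NFI gene of lung and brain development, was the gene with the most mark in scramble cells. The 1 transcript that starts at 82351654 on the minus strand of chromosome 4 (group 1) had 0 reads in Jarid1b shRNA cells and 2 in scramble cells. Group 2, with 6 TSSs at 82151212 to 82151683, 199971 bases downstream of that start, held 154 reads in Jarid1b shRNA cells and 133 in scramble cells (log2 ratio 1.18, 0.84 to 1.53) and was called higher. That call was lost in 3 of the alternatives: the log2 ratio was 0.72 with windows of 500 bases each side, 0.78 with the median of all genes set to 0 and -0.30 with the median of the GC class subtracted. In read numbers the libraries were close at this group, but the scramble total is the larger. Scaled to totals, as at every group, the levels were 23.6 RPM per kb in Jarid1b shRNA cells and 10.4 in scramble cells. Group 3, at 82145220, held 5 reads in each library.

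Nfic, an NFI gene known for tooth root formation, had the highest level of all in Jarid1b shRNA cells. Group 1, the start of 1 protein-coding transcript at 80893750 on the minus strand of chromosome 10, held 156 reads in Jarid1b shRNA cells and 70 in scramble cells (log2 ratio 2.12, 1.71 to 2.55). Group 2, at 80889859 to 80889932, held 35 reads in Jarid1b shRNA cells and 10 in scramble cells (2.78, 1.73 to 3.96). By the enrichment rule given below, which sets a window against its surroundings, group 2 was enriched for H3K4me3 in neither library. The downstream groups of the gene did not share that difference. Group 3, at 80870386, held 14 reads in Jarid1b shRNA cells and 28 in scramble cells, with a log2 ratio of -0.03 (-1.07 to 0.94). Group 4, at 80863299, held 20 reads in Jarid1b shRNA cells and 42 in scramble cells, with a log2 ratio of -0.10 (-0.95 to 0.70).

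Ebf3, an EBF gene of neuronal differentiation, came next to Nfix in its ratio. Group 1, at 144506097 to 144506128 on the minus strand of chromosome 7, starts 3 of its 4 transcripts. It held 77 reads in Jarid1b shRNA cells and 13 in scramble cells (log2 ratio 3.54, 2.68 to 4.51). The highest 500-base bin lay 250 bases downstream of the first TSS in both libraries, with 39 reads in Jarid1b shRNA cells and 5 in scramble cells. Group 2, at 144459221, held 7 reads in Jarid1b shRNA cells and 5 in scramble cells, too few to compare. Ebf4, the least studied EBF gene, has its TSSs at 130120905 and 130121675 on the plus strand of chromosome 2, and the group held 87 reads in Jarid1b shRNA cells and 44 in scramble cells (1.95, 1.41 to 2.51).

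Ebf1 and Ebf2 had the lowest levels of the leading groups in Jarid1b shRNA cells. In scramble cells Ebf2 was again the lowest, while Ebf1 (2.51 RPM per kb) stood above Nfia, Ebf3 and Nfix, with overlapping intervals. Ebf1, required for B cells, held 37 reads in each library at group 1 (44430819 to 44431681, plus strand of chromosome 11). Its log2 ratio of 0.97 (0.27 to 1.67) was under 2-fold. A pseudogene entry with the same symbol starts at the same base and was left out. Group 2 of Ebf1, at 44435263, held 4 reads in Jarid1b shRNA cells and 5 in scramble cells, and group 3, at 44725640, held 0 and 2 in the same order. Ebf2, a factor of brown fat cells and neurons, held 8 reads in Jarid1b shRNA cells and 3 in scramble cells at its only TSS (67852129, plus strand of chromosome 14). With 11 reads in all it was not compared.

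**Figure D2:**
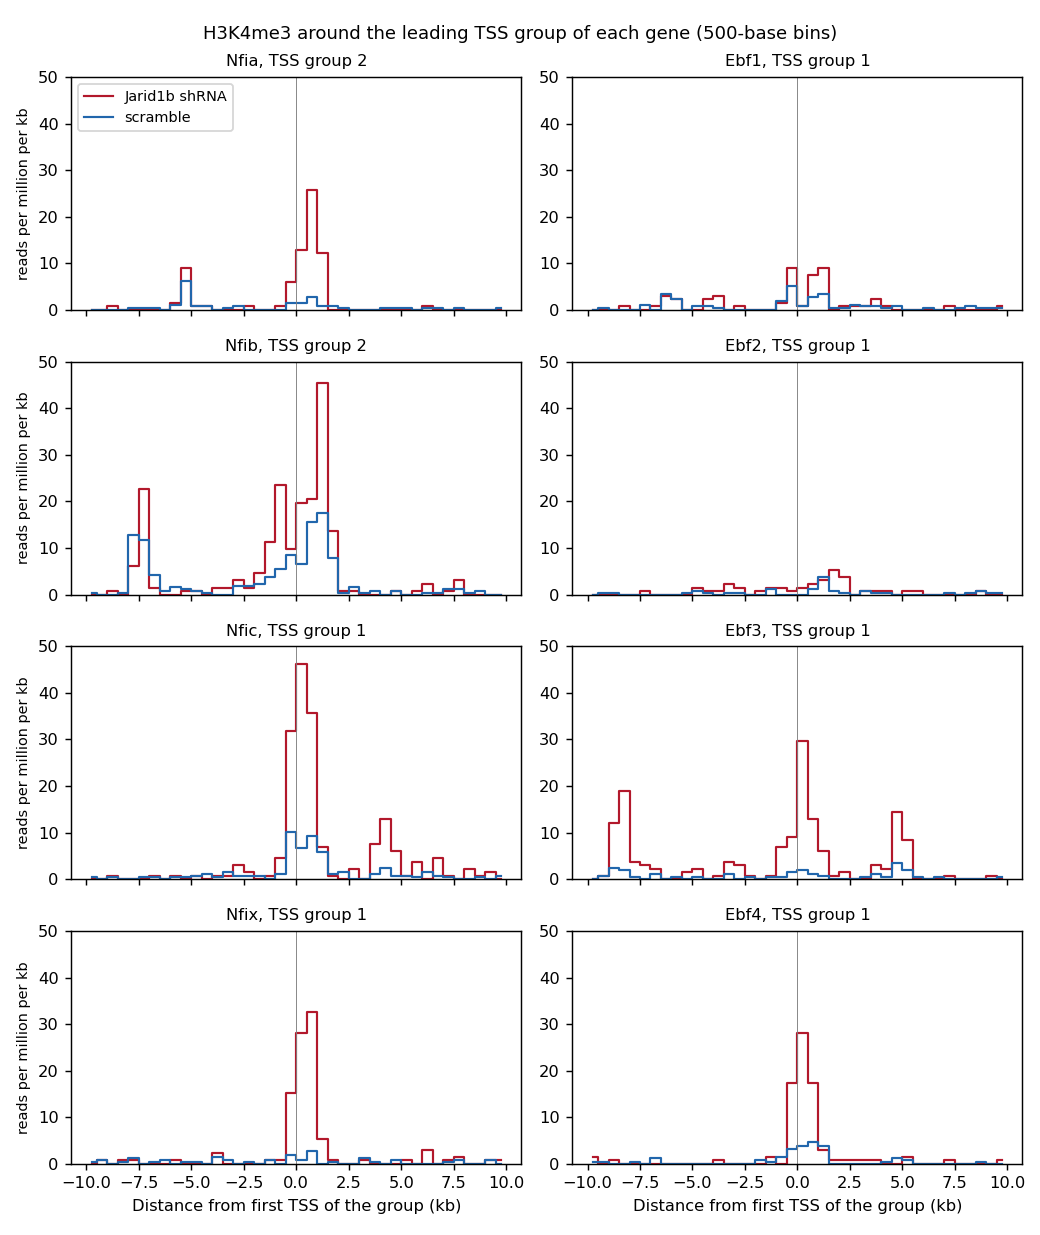
H3K4me3 from 10 kb before to 10 kb after the first TSS of the leading group of each gene, in bins of 500 bases, with RPM per kb on the vertical axis and Jarid1b shRNA in red and scramble in blue (1 library each). Nfia, Nfic, Nfix, Ebf3 and Ebf4 have a peak at the TSS that is higher in Jarid1b shRNA, Nfib has a broad domain in both, Ebf1 and Ebf2 are low, and Ebf3 has 2 further peaks on either side. Further peaks also lie upstream at Nfib and Nfia, in both libraries, and downstream at Nfic.

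The mark around Ebf3 was not limited to its start sites. In a scan of 1 kb bins over each gene and 20 kb upstream of it, Ebf3 had 9 bins enriched for H3K4me3 in Jarid1b shRNA cells and 3 in scramble cells. Of all 2654886 bins of the genome, 2.02% passed in Jarid1b shRNA cells and 2.44% in scramble cells. A bin needed 6 reads to pass in the smaller Jarid1b shRNA library and 8 in the scramble library, so the numbers of bins are not compared between libraries. Away from its TSS windows, a bin centred at -8.37 kb from the first TSS, upstream of the gene (144514001 to 144515000), held 45 reads in Jarid1b shRNA cells and 10 in scramble cells (log2 ratio 3.14, 2.13 to 4.29). A bin centred 4.63 kb downstream (144501001 to 144502000), inside the gene, held 29 reads in Jarid1b shRNA cells and 13 in scramble cells (2.13, 1.14 to 3.19). No other annotated TSS lies within 1 kb of either. The upstream bin also held 19 and 9 reads in Jarid1b replicates 1 and 2. Its GC content is 70.7%, and the 250 bases in it with the most Jarid1b shRNA reads (18, against 2 in scramble cells) hold 26 CpG pairs, again in capitals.
Ebf3 upstream region (chr7:144514551-144514800, strand -): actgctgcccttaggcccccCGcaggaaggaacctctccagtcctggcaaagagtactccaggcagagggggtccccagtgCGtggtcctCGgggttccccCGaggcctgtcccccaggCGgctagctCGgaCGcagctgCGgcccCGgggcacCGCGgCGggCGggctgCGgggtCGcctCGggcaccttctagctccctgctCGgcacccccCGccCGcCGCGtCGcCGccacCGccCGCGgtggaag
The same scan found 11 enriched bins in Jarid1b shRNA cells and 5 in scramble cells for Nfix, 5 and 3 for Nfia, 12 and 10 for Nfib, 18 and 17 for Nfic, 4 and 6 for Ebf1 and 1 and 1 for Ebf2, each in the same order. The bin of Ebf2, centred 1.37 kb downstream of its TSS and mostly beyond the 1 kb window, held 13 reads in each library. The 11 and 10 bins of Ebf4 include upstream ones at neighbouring genes. Other loci also have counted bins within 1 kb of a TSS of another gene. These are Lyl1 and G430095P16Rik for Nfix, Gm12676 and E130114P18Rik for Nfia, Gm11266 for Nfib and Gm16104 for Nfic. At Nfib, a bin centred at -6.82 kb from the leading group, upstream of it, held 28 reads in Jarid1b shRNA cells and 40 in scramble cells, and its log2 ratio of 0.45 had an interval that included 0 (-0.30 to 1.19).

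Over the gene bodies, outside the start site windows, the ratios were smaller and ran in both directions. The log2 ratio of Jarid1b shRNA over scramble was 0.89 at Nfix (0.60 to 1.18), 0.63 at Ebf4 (0.20 to 1.06), 0.42 at Ebf3 (0.09 to 0.74) and 0.41 at Nfic (0.11 to 0.72). At Ebf1 it was -0.55 (-0.81 to -0.29) and at Nfia -0.27 (-0.54 to -0.01). The intervals of Nfib (0.03) and Ebf2 (-0.21) included 0. Background bins had a log2 ratio of -0.26 on the same scaling. Scaled to those bins, Nfia was at -0.01 with an interval that included 0 (-0.28 to 0.25), Nfib at 0.29 (0.11 to 0.47) and Ebf1 at -0.29 (-0.55 to -0.03). Levels there were low, between 0.152 and 2.09 RPM per kb in Jarid1b shRNA cells and between 0.184 and 1.57 in scramble cells.

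GC content moved with the H3K4me3 ratio over all genes, and most leading groups of the Nfi and Ebf genes are GC-rich. Windows of Ebf3 group 1, Nfic group 1, Nfix group 1, Nfia group 2, Nfib group 2 and Ebf4 had GC contents of 69.6%, 68.4%, 68.0%, 66.1%, 64.6% and 64.1%, while the median over all genes was 51.15%. Ebf2 (52.9%) and Ebf1 group 1 (49.5%) were near that median.

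**Figure D3:**
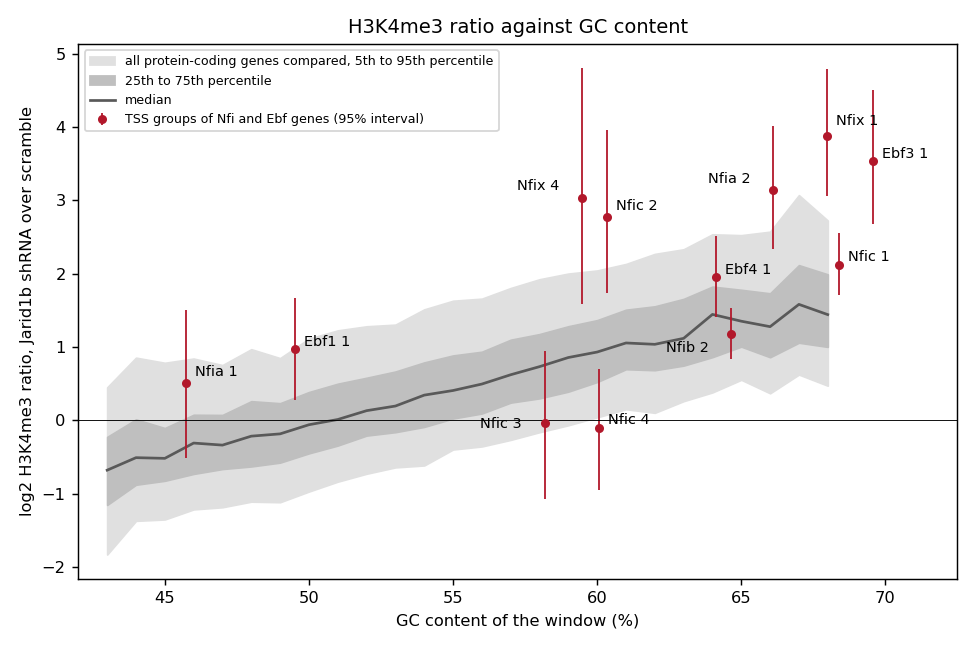
The log2 H3K4me3 ratio of Jarid1b shRNA over scramble (vertical axis) against the GC content of the window in % (horizontal axis). Red points with 95% intervals are the 12 TSS groups of Nfi and Ebf genes compared, and the line and bands are the median and percentiles of all protein-coding genes compared; Nfix group 1, Nfia group 2, Nfix group 4 and Nfic group 2 lie above the 95th percentile at their GC content, Ebf3 group 1 lies beyond the bands, and Nfib group 2 lies near the median.

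In the class of highest GC content, out of 20 equal classes, the median log2 ratio of all genes was 1.48, while it was -0.48 in the class of Nfia group 1. The Nfix, Ebf3 and Nfia groups exceeded it by 2.40, 2.06 and 1.66. Nfic group 1 exceeded it by 0.65, and Nfib group 2 fell short of it, at -0.30. Ebf4 stood 0.80 above the 1.15 of its class and Ebf1 group 1 stood 1.10 above the -0.13 of its class. The part of GC content in these ratios was not tested.

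Jarid1b itself was enriched in both replicates at 6 of the 22 TSS groups, namely Nfia group 2, Nfib group 2, Nfix group 1, Ebf1 group 1, Ebf2 and Ebf3 group 1. Enrichment meant a one-sided Poisson test within each library against the rate of the genome or of the 10 kb on each side, whichever was larger, with p-values adjusted over all groups by the Benjamini-Hochberg method and a threshold of 0.05. Of all 39760 groups, 4.63% passed in both. In replicate 1 alone 8 of the 22 passed, beside 15.5% of all groups, and in replicate 2 alone 6 passed, beside 6.68%. At the gene-level TSS, 3 of the 8 genes passed in both (Nfix, Ebf2 and Ebf3), beside 7.78% of all genes. There, 6 genes passed in replicate 1 and 3 in replicate 2, beside 26.8% and 10.5% of all genes. H3K4me3 passed the same rule at 12 of the 22 groups in Jarid1b shRNA cells and 10 in scramble cells, beside 39.6% and 39.5% of all groups. Nfix groups 2 and 4 and Ebf3 group 2 passed in Jarid1b shRNA cells and not in scramble cells, 3 groups beside 2.11% of all. At the gene-level TSS, 6 of the 8 genes passed in Jarid1b shRNA cells and 6 in scramble cells, beside 59.9% and 60.1% of all genes, and 0 passed in Jarid1b shRNA cells alone, beside 1.92%.

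**Figure D4:**
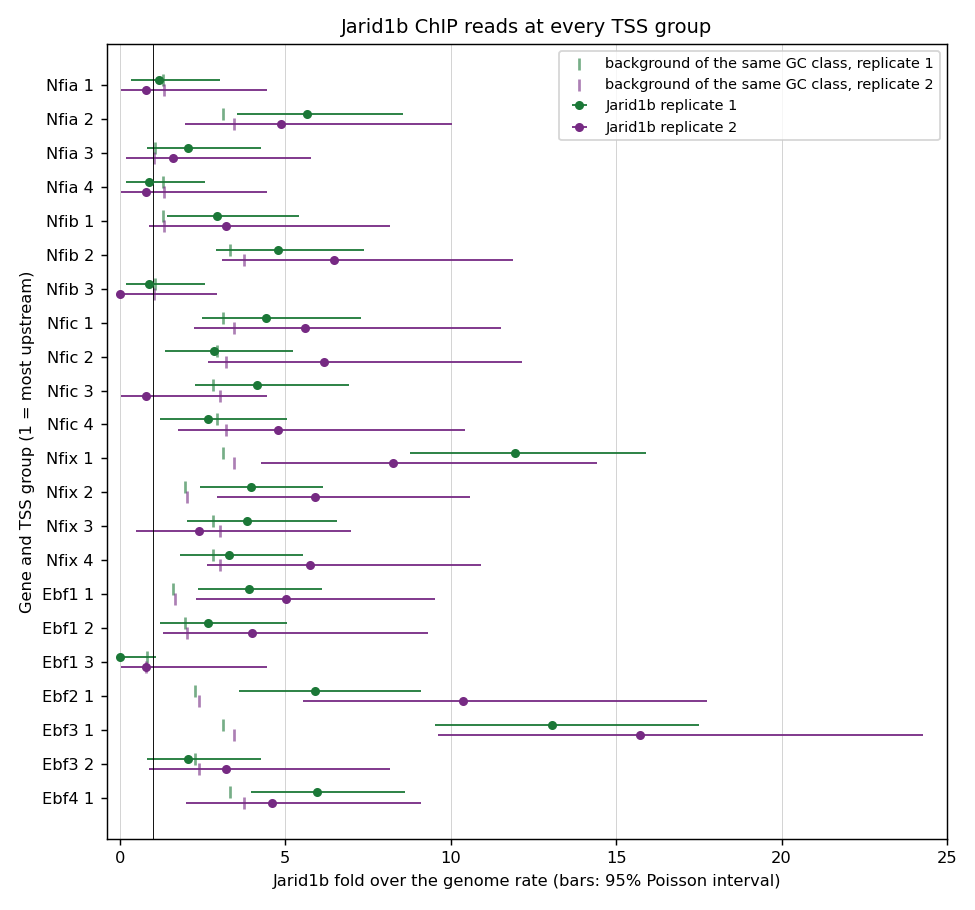
Jarid1b reads at all 22 TSS groups as the fold over the genome rate (horizontal axis), with replicate 1 in green and replicate 2 in purple, bars for the 95% Poisson interval, and a tick for the background rate at the same GC content. Ebf3 group 1 and Nfix group 1 have the highest folds in replicate 1, and they, Nfix group 2, Ebf1 group 1 and Ebf2 have intervals that lie above the tick in both replicates. The tick leaves out the rate of the 10 kb on each side, and by the enrichment rule, which uses it, Nfix group 2 passed in neither replicate.

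Ebf3 group 1 held 45 reads in replicate 1 and 20 in replicate 2, which is 13.1-fold (9.53 to 17.5) and 15.7-fold (9.60 to 24.3) the genome rate. Nfix group 1 held 47 and 12 reads, or 11.95-fold (8.78 to 15.9) and 8.26-fold (4.27 to 14.4). Ebf2, with few H3K4me3 reads in its window, held 20 and 13 reads, or 5.90-fold (3.60 to 9.11) and 10.4-fold (5.53 to 17.75). The median fold over all gene-level TSSs was 2.36 in replicate 1 and 2.40 in replicate 2, so a fold of that size is common to start sites. Nfia group 2 (22 and 7 reads), Nfib group 2 (20 and 10) and Ebf1 group 1 (19 and 9) had folds between 3.92 and 6.46. Nfic group 1, with the most H3K4me3 in Jarid1b shRNA cells, held 15 and 7 reads and passed in neither replicate as a TSS group. Among gene-level TSSs, where fewer windows were tested, it passed in replicate 1 only. Nfib group 2, with the most H3K4me3 in scramble cells, is among the groups that passed in both. Ebf4 held 28 and 8 reads and passed in replicate 1.

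Background reads of the Jarid1b libraries also moved with GC content. Against background bins of the same GC class, the folds in replicates 1 and 2 were 4.21 and 4.57 at Ebf3 group 1, 3.85 and 2.40 at Nfix group 1, 2.61 and 4.35 at Ebf2 and 2.42 and 3 at Ebf1 group 1. At Nfia group 2 they were 1.82 and 1.42 and at Nfib group 2 they were 1.43 and 1.72. With that rate in place of the genome rate, 137 of all genes and 2 of the 8 (Ebf3 and Ebf2) passed in both replicates at the gene-level TSS, and Nfix and Ebf4 passed in replicate 1 only. The Jarid1b libraries have 1 further limit: the offset between plus-strand and minus-strand reads peaked at 0 bases in both, whereas it peaked at 110 bases in the Jarid1b shRNA H3K4me3 library and 120 in the scramble H3K4me3 library. At 120 bases the number of strand pairs, over the median of all offsets, was 0.995 and 1.005 in Jarid1b replicates 1 and 2. There it was 1.16 in the Jarid1b shRNA H3K4me3 library and 1.13 in the scramble H3K4me3 library. The cause of this lack of offset in the Jarid1b libraries was not tested.

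Genes whose 4 libraries were most like those of the Nfi and Ebf genes were found by Euclidean distance over log2(RPM + 0.1) at the gene-level TSS. Nearest to Nfix were Begain, Tbx2 and Wnt7b, at distances of 0.519, 0.659 and 0.665. Begain held 74 reads in Jarid1b shRNA cells and 12 in scramble cells. Nearest to Ebf3 were Foxf1a (0.442), Foxf2 (0.678) and Tbx2 (0.775), and Foxf1a held 67 reads in Jarid1b shRNA cells and 17 in scramble cells. Nearest to Nfic were Socs7, Phf15 and Cebpb (0.277, 0.333 and 0.335). Nearest to Nfib, measured at its unmarked upstream start, were Muc6, Isl2 and Cd7, each with 0 reads in Jarid1b shRNA cells and 2 in scramble cells. These distances rest on 4 libraries, of which the Jarid1b replicates share fragments.

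Partners and targets of the EBF and NFI proteins were described by 5 lists at the gene-level TSS, each read beside the same 24.0% higher and 2.4% lower over all genes. Of 9 EBF partners and B lineage regulators found, 8 were compared, 4 were called higher and 0 lower, with a median log2 ratio of 1.14. They were Zfp423, an EBF-binding zinc finger protein (2.46, 2.03 to 2.91), Ikzf1 (1.89, 1.35 to 2.44), Tcf12 (1.21, 0.83 to 1.60) and Foxo1 (1.18, 0.86 to 1.501). With the median of the GC class subtracted, 0 of the 8 were called, and Tcf12 and Foxo1 stood at -0.26 and -0.30. With the median of all genes set to 0, Zfp423 and Ikzf1 kept the call. Of 10 EBF target genes of B cells, 2 had enough reads to compare and 0 were called. The 2 compared were Cd24a (log2 ratio 0.92, 0.50 to 1.35) and Vpreb1 (-0.13, -0.56 to 0.29). Vpreb1 held 70 reads in Jarid1b shRNA cells and 150 in scramble cells. Cd79a, a component of the B cell receptor, held 6 reads in Jarid1b shRNA cells and 10 in scramble cells.

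Of 9 adipocyte genes, 5 were compared and all 5 of these were called higher, while the remaining 4 had too few reads. Prdm16, a regulator of brown fat, held 63 reads in Jarid1b shRNA cells and 12 in scramble cells (log2 ratio 3.36, 2.46 to 4.39). Cebpa (2.20), Cebpb (2.18), Ucp1 (1.59) and Pparg (1.46) followed, and Cebpa and Pparg were enriched for Jarid1b in both replicates. Prdm16 and Ucp1 kept the call with the median of the GC class subtracted and the other 3 lost it. Of 12 glial and cortical genes linked to NFI, 7 were compared, 5 were called higher and 1 lower. Sox9, a regulator of gliogenesis, had a log2 ratio of 2.27 (1.43 to 3.18), and Hes1, Slc1a2, Hes5 and Id4 had 1.55, 1.54, 1.499 and 1.26. Gja1, which encodes connexin 43, held 17 reads in Jarid1b shRNA cells and 88 in scramble cells (-1.40, -2.25 to -0.64). With the median of the GC class subtracted, Sox9 alone of the 7 kept its call. Hes1, Slc1a2, Hes5 and Id4 then stood at 0.40, 0.61, 0.02 and 0.11, and Gja1 was no longer called lower. The astrocyte gene Gfap held 2 reads in each library.

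Of 8 olfactory and hindbrain partners of EBF, 7 were compared, 5 were called higher and 0 lower. Lhx2, a regulator of forebrain and olfactory neurons, held 28 reads in Jarid1b shRNA cells and 5 in scramble cells (log2 ratio 3.45, 2.06 to 5.18). Neurog1 (1.47) and Emx2 (1.29) were also called higher. With the median of the GC class subtracted, 1 of the 7 was called, Lhx2, and with the median of all genes set to 0, 3 were. Jarid1b was enriched in both replicates at 5 of the 8, Lhx2, Neurog1 and Emx2 among them, beside 7.78% of all genes. It passed at 0 of the 9 EBF partners and B lineage regulators and 0 of the 10 EBF target genes. Among the 9 adipocyte genes 2 passed, and among the 12 glial and cortical genes 2 passed. These Jarid1b calls of the lists were not repeated against background bins of the same GC class, with which 137 of all genes passed.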

How the data were processed

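The authors deposited reads as rows of coordinates and strand, and a score that is 0 in every row of the deposited files and was not used. Alignment was to mm9 with Bowtie, per the submitters' processing notes, and its version was not given in the sources used here. Per the labels' protocols, the authors also removed repeated positions, called MACS peaks and normalized to IgG. The deposited rows repeat positions and hold no peaks, so they precede those steps, and no IgG library was used here. The libraries held 2851928 (Jarid1b shRNA H3K4me3), 7530697 (scramble H3K4me3), 5120111 and 1736183 (Jarid1b replicates 1 and 2) rows, of which 7.56%, 31.5%, 15.3% and 7.69% repeated a position.

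Here, repeats of a 5′ position on a strand were removed, and the remaining 5′ positions were counted without a shift in windows of 1 kb on each side of GENCODE vM1 TSSs. The local rate was taken over 10 kb on each side. Counts were scaled to reads kept. Ratio intervals are exact Clopper-Pearson intervals conditional on the summed reads, level intervals are exact Poisson intervals, and neither is a test between conditions. Background bins were 1 kb autosomal bins over 5 kb from any TSS and not enriched for H3K4me3, with under 30 reads, in 14 GC classes. Sequences were read from the NCBIM37 (mm9) genome. Python 3.11.15, numpy 2.4.6, scipy 1.17.1, pandas 2.3.3 and matplotlib 3.10.9 were used, and the calls were tested on simulated data.

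The genes, lists and rules were chosen with earlier results of these data known. The text names the 8 genes, the 3 nearest genes for Nfix, Ebf3, Nfic and Nfib, and list members that were called, among the 3 largest in each direction. List genes beyond that rule, all marker genes, and Cd79a and Gfap were named after their values were seen. Some genes and sequences that these rules select are not reported here. List, marker and nearest genes on chromosome 18 were not analysed here, while counts over all genes include that chromosome. Also left out of the lists were Spi1, Cebpd and Sox1, which were not matched by symbol among the protein-coding genes used. Alternatives covered read shift, window, repeats, scaling, GC class, minimum reads and fold, threshold, background rate and single Jarid1b replicates. A move of Jarid1b minus-strand reads by 1 read length, a requirement of enrichment in either H3K4me3 library, and the other scalings of lists, markers and gene bodies were chosen after seeing the data.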

Additional observations from a re-analysis of the deposited data

How the results depend on the processing

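Over the alternatives, 3 to 5 of the 8 genes and 6 to 11 of the 22 TSS groups were called higher in Jarid1b shRNA cells, and 0 genes were called lower under any of those run. With the median of the GC class subtracted, 3 genes and 6 groups were called higher. Nfib group 2 (where the log2 ratio turned to -0.30), Nfic group 1 and Ebf4 lost the call and Ebf1 group 1 gained it. The count of genes enriched for Jarid1b in both replicates, 3, became 5 with the genome rate only and 1 with a threshold of 0.001, and the cause was not tested. Leaving out a Jarid1b replicate gave 3 to 6, since 1 library then had to pass: 3 without replicate 1 and 6 without replicate 2. Scaling moved the split over all genes. Of genes called, 90.9% were higher with scaling to reads kept, 57.5% with the median ratio set to 0 (a log2 shift of 0.40), 97.6% with background bins (-0.26) and 69.6% with GC classes. At 4 genes higher of the 8, the median scaling left the count as it was. Log2 ratios of groups with 0 reads in a library have no finite value and were not compared across alternatives. No paired analysis was possible because each H3K4me3 condition has 1 library. Depth limits single groups: a 2 kb window at the genome rate holds 2.06 reads in the Jarid1b shRNA library, 4.03 in the scramble library, and 3.39 and 1.25 in the Jarid1b replicates, and 10 of the 22 groups had too few reads to compare.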
